A study of Drosophila melanogaster with 36 samples.

Results

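The superoxide and peroxide defence of the fly head was followed in 10 genes of 17611 in the count files. They are the superoxide dismutases Sod1, Sod2 and Sod3, catalase (Cat), the catalytic and modifier subunits of glutamate-cysteine ligase (Gclc and Gclm), thioredoxin-2 (Trx-2, listed as Trx2 in the annotation), thioredoxin reductase (Trxr1), and the regulators Keap1 and cnc. The genes were taken by name, and all 10 were found and passed the filter on low counts in every fit. The 36 libraries come from adult heads in 12 groups of 3: 3 genotypes, each with intact heads (uninjured) or 7 days after the antennae and maxillary palps had been cut off (7 dpa), and each as input or pulldown. All flies carry w and the driver orco-Gal4, which is active in olfactory receptor neurons with cell bodies in the ablated organs. Background flies (w; orco-Gal4/+) have no further transgene. Wild type adds 5xUAS-GFP::RpL10Ab/+, a tagged protein of the large ribosomal subunit made under the driver, and dnmnatOE has this tag as well as 5xUAS-dnmnat opposite the driver (orco-Gal4/5xUAS-dnmnat). Inputs hold poly-A RNA of the whole head lysate, and pulldowns hold RNA bound to GFP-Trap beads, prepared without poly-A selection. For each genotype and condition 300 animals were pooled, aged 5 to 10 days before ablation. The labels read before injury for uninjured heads, and no age at collection is given for them. A difference in adult age therefore cannot be told apart from injury in comparisons with 7 dpa.

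Superoxide dismutases turn superoxide into hydrogen peroxide, in the cytosol (Sod1), in mitochondria (Sod2) or outside the cell (Sod3), and catalase breaks hydrogen peroxide down. Glutamate-cysteine ligase makes the rate-limiting step of glutathione synthesis. Flies lack glutathione reductase, and thioredoxin reductase with thioredoxin keeps both glutathione and protein thiols reduced. The cnc gene encodes CncC, the fly counterpart of mammalian Nrf2, which partners with the small Maf protein maf-S and switches on detoxification genes, while Keap1 holds it for degradation through a Cul3 ubiquitin ligase. The gene also makes shorter isoforms with developmental roles, which gene counts do not separate.

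Inputs held 6628633 to 22329307 counts on genes and pulldowns 644358 to 2057294. Of the recorded reads, those that Htseq-Count could not give to a single gene (ambiguous) were 1.92% to 3.21% in input libraries, whereas pulldown libraries had 48.5% to 60.3%. Replicates are technical according to the labels, so the p-values measure the spread between libraries, which may not include that between animals. Levels are CPM, counts scaled to a common library size with edgeR's TMM factors. Nmnat, the overexpressed gene, ranged from 20.2 to 25.6 CPM in uninjured wild type inputs and from 23.8 to 30.2 CPM in uninjured dnmnatOE inputs (log2 difference 0.15, adjusted p = 0.67, edgeR). At 7 dpa the means were 23.7 and 20.2 CPM (log2 difference −0.23, adjusted p = 0.38). In pulldowns the log2 difference was −0.99 (adjusted p = 0.62) in uninjured heads and 1.03 (adjusted p = 0.83) at 7 dpa. The counts thus give no check of the genotype in either fraction, and dnmnatOE is used here as the label of the libraries. The labels also name olfactory sensory neurons as the cell type. The summed level of 6 of their markers (Orco and 5 odorant receptors) was 1.77 to 52.3 CPM in uninjured wild type pulldowns. It was 9.84 to 19.8 CPM in uninjured dnmnatOE and 0 to 6.53 CPM in uninjured background pulldowns, so wild type and background overlapped. Uninjured wild type inputs held 29.6 to 34.6 CPM. Or22a, Or42b and Or47b were at 0 in all 3 wild type pulldowns, but had only 38, 59 and 139 counts over the 18 inputs.

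Per kilobase of exon, Sod1 had the highest level of the 10 genes in inputs, with a mean over 18 libraries of 434 CPM per kilobase and a within-group SD of 25.7. It was followed by Trx-2 at 148, Gclm at 93.0, Sod2 at 82.9, Trxr1 at 61.8, Cat at 61.0, cnc at 33.6, Gclc at 20.9, Sod3 at 15.2 and Keap1 at 3.76 CPM per kilobase. Trxr1 and Cat, neighbours in this order, differed by less than their within-group SDs of 5.10 and 5.34. The catalytic subunit of glutamate-cysteine ligase stood below its modifier subunit, and the inhibitor Keap1 below cnc, in every group of inputs. In pulldowns Sod1 again came first (97.8 CPM per kilobase, SD 38.4) and Keap1 last (6.02, SD 2.61). Between them stood Cat at 52.5, Trxr1 at 38.8, Gclc at 35.8, cnc at 32.97, Gclm at 30.4, Trx-2 at 19.2, Sod2 at 13.7 and Sod3 at 7.12 CPM per kilobase. From Cat downward, no gene differed from its neighbour by more than the larger of their within-group SDs.

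**Figure D1:**
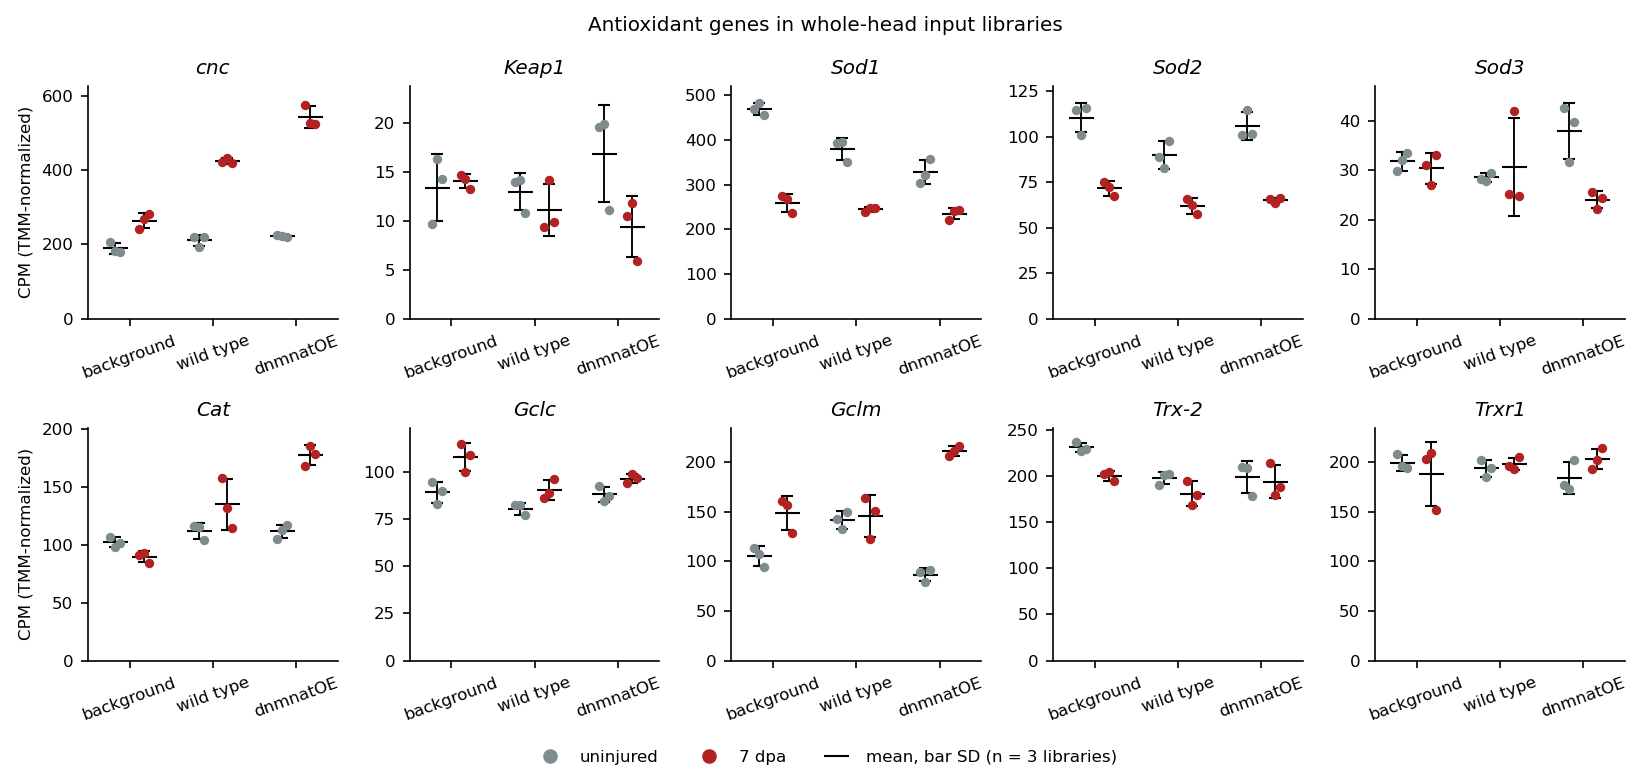
Levels of the 10 genes in whole-head inputs, in CPM on a linear axis from 0, for 3 genotypes uninjured (grey) and 7 dpa (red). Points are libraries, and bars give mean and SD of 3; group means of cnc run from 189 CPM in uninjured background to 542 CPM in injured dnmnatOE, and Sod1 and Sod2 lie lower at 7 dpa in all 3 genotypes.

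Levels of the antioxidant genes after the loss of antennae and palps were compared in inputs by setting 7 dpa against uninjured heads of the same genotype. Calls needed both an adjusted p no greater than 0.05 (edgeR's quasi-likelihood test, Benjamini-Hochberg over 10437 genes) and a log2 fold change past 0.6 or −0.6. In background, 0 of the 10 genes were called higher and 2 lower, where 15.2% of all genes were called (9.99% higher and 5.25% lower). In wild type 1 was called higher and 1 lower, where 28.5% of all genes were called (17.8% and 10.7%). In dnmnatOE 3 were called higher and 3 lower, where 50.7% were called (26.5% and 24.2%). By the adjusted p alone, 6, 4 and 7 of the 10 genes passed in background, wild type and dnmnatOE, where 27.7%, 43.6% and 60.7% of all genes did. The counts of members called lie near the backgrounds of called genes, and nothing is read from them. The median log2 fold change of the 10 genes was −0.073, 0.038 and 0.047 in background, wild type and dnmnatOE, beside 0.0088, −0.022 and −0.064 for all genes.

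Whole-head RNA changed in makeup over the same comparison. The ablated organs are absent from heads at 7 dpa. The 5 antennal support cell markers summed to 1053 to 1097 CPM in uninjured and 281 to 347 CPM in injured background. Wild type gave 1206 to 1260 and 293 to 303 CPM, and dnmnatOE 1280 to 1324 and 244 to 273 CPM. Obp19d made up most of this sum, with 220973 counts over the 18 inputs against 15609 for Obp83a, the next highest. The marker a5 was at 0 in every injured input. Over the 3 genotypes the 6 olfactory neuron markers summed to 18.4 to 36.1 CPM in uninjured and 0.15 to 3.75 CPM in injured inputs. The summed level of 7 fat body markers, which include the yolk proteins, was 66569 to 69248 CPM in uninjured and 139287 to 150112 CPM in injured wild type, 60717 to 68021 and 245323 to 270242 CPM in dnmnatOE, and 61172 to 61618 and 73058 to 84548 CPM in background. The yolk proteins made up most of this sum: Yp1, Yp2 and Yp3 had 8944930, 8732662 and 13220158 counts over the 18 inputs. The others had 573108 (apolpp), 268876 (FASN1), 86393 (Lsp2) and 5772 (fit). Of these 7 markers, 5 were called higher and 1 lower in dnmnatOE. The 4 general neuronal markers (elav, nSyb, Syt1 and brp) summed to 1030 to 1063 CPM in uninjured and 286 to 294 CPM in injured dnmnatOE, and to 857 to 866 and 495 to 552 CPM in wild type, where all 4 were called lower in both genotypes and 0 in background. The 4 hemocyte markers were all called higher after injury in each genotype, reaching 1444 to 1499 CPM in wild type. The 4 muscle markers summed to 1054 to 1070 CPM in uninjured and 231 to 251 CPM in injured dnmnatOE, where 4 of 4 were called lower, to 769 to 776 and 618 to 649 CPM in wild type, where 1 was, and to 826 to 829 and 778 to 837 CPM in background, where 0 were. The 6 photoreceptor markers went from 29670 to 30875 to 11499 to 11724 CPM in dnmnatOE, with 4 called lower, from 23407 to 23938 to 17295 to 17968 CPM in wild type and from 33817 to 34362 to 27633 to 29298 CPM in background, with 1 called lower in each. In such bulk RNA, fewer cells of a type and less RNA per cell cannot be told apart. The part of these shifts in the results on the 10 genes was not tested. Scaling also matters here: with library totals alone, in place of TMM factors, the median of all genes became −0.40 in wild type and −0.81 in dnmnatOE, and the share of called genes that were higher went from 62.6% to 27.2% and from 52.3% to 23.05%. Of the 10 genes, library totals called 0 higher and 2 lower in background, 1 and 3 in wild type, and 0 and 7 in dnmnatOE, in place of 0 and 2, 1 and 1, and 3 and 3. The 7 lower in dnmnatOE were Sod1, Sod2, Sod3, Gclc, Trx-2, Trxr1 and Keap1, and those in wild type Sod1, Sod2 and Keap1. All changes below are on the TMM scale, relative to the bulk of genes, and were read again with library totals.

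The regulator cnc (chromosome 3R, 23185580 to 23226711) was higher after injury in all 3 genotypes. Its exons share 63 bases with Irk1 and CG46310 on the opposite strand. Its level was 206, 182 and 179.6 CPM in the 3 uninjured background inputs and 242, 269 and 281 CPM at 7 dpa. Wild type inputs held 219, 193 and 220.0 CPM before and 420.4, 433 and 418 CPM after injury. For dnmnatOE the values were 225, 221 and 218 CPM and 576, 526 and 524 CPM. The injured libraries lay above the uninjured ones in each genotype, and the injured groups did not overlap each other, with dnmnatOE highest. The log2 fold change with injury was 0.48 ± 0.070 (SE) in background, below the fold limit (adjusted p = 1.6e-07), 1.01 ± 0.069 in wild type (adjusted p = 5.2e-18) and 1.29 ± 0.069 in dnmnatOE (adjusted p = 1.3e-22), the last a 2.44-fold rise. With library totals the values were 0.41, 0.63 and 0.54: positive throughout, but no longer larger in dnmnatOE than in wild type.

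Keap1 (chromosome 3R, 17073942 to 17079945), the inhibitor of CncC, was the lowest of the 10 genes. Uninjured dnmnatOE inputs held 19.6, 19.8 and 11.1 CPM and injured ones 10.4, 11.8 and 5.87 CPM, and the groups overlapped through replicate 3 of the uninjured group. It fell by 0.85 on the log2 scale (95% interval −1.37 to −0.33, adjusted p = 0.0039), a call that was lost without replicate 3 of injured dnmnatOE, where the value was −0.60 and the adjusted p 0.056. In wild type Keap1 held 13.9, 14.1 and 10.8 CPM before and 9.34, 14.2 and 9.84 CPM after injury, with an interval of −0.74 to 0.29 that includes 0. Library totals gave −0.61 there (adjusted p = 0.039, just past the fold limit) and −1.60 in dnmnatOE. Background gave 9.63, 16.2 and 14.2 and 14.6, 14.3 and 13.2 CPM, with an interval of −0.45 to 0.60.

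Within each library, the level per kilobase of cnc was set against that of Keap1. The ratio was 5.91, 5.13 and 7.67 in uninjured and 16.9, 11.5 and 15.9 in injured wild type inputs, and 4.32, 4.19 and 7.40 and 20.7, 16.7 and 33.5 in dnmnatOE. Neither genotype had overlapping groups (exact permutation p = 0.1 in each, two-sided, the smallest that 3 against 3 libraries allow), whereas the background groups, 8.04, 4.22 and 4.75 and 6.22, 7.07 and 7.98, overlapped (exact permutation p = 0.4). At 7 dpa the ratios of dnmnatOE and wild type overlapped as well (exact permutation p = 0.2).

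Sod1 (chromosome 3L, 11112281 to 11113740) encodes the cytosolic copper-zinc enzyme. Its level in background was 469.7, 482 and 455 CPM in uninjured and 274, 268 and 235 CPM in injured heads. Wild type held 392, 395 and 350.4 CPM and then 238, 247 and 248 CPM. Injured dnmnatOE heads had 220.3, 240.0 and 243 CPM where uninjured ones had 304, 321 and 356 CPM. All injured libraries of a genotype lay below all its uninjured ones. Sod1 fell in background (log2 fold change −0.86 ± 0.070 SE, adjusted p = 6.4e-15) and in wild type (−0.63 ± 0.069, adjusted p = 3.6e-11), and in dnmnatOE the difference passed the test but not the fold limit (−0.48 ± 0.069, adjusted p = 2.8e-08). With library totals the values were −0.92, −1.02 and −1.23, so that dnmnatOE was called too and the order of the genotypes was turned. Uninjured wild type was at −0.31 against background, without overlap (adjusted p = 0.0007). Uninjured dnmnatOE was at −0.21 against wild type (adjusted p = 0.023), but these groups overlapped and the test was not passed in 4 of 6 fits without 1 library (adjusted p up to 0.15, without replicate 1 of uninjured dnmnatOE) nor with library totals (−0.18, adjusted p = 0.052). At 7 dpa the intervals of both differences included 0, and library totals gave −0.43 and −0.40 (adjusted p = 4.2e-07 and 2.8e-06). These comparisons share the wild type libraries.

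The mitochondrial manganese enzyme Sod2 (chromosome 2R, 16772785 to 16773915) was also lower after injury in each genotype. Background inputs held 115, 101 and 116 CPM and then 75.3, 72.2 and 67.3 CPM. Wild type went from 89.1, 82.5 and 97.7 to 65.8, 62.6 and 57.3 CPM, and dnmnatOE from 101, 114 and 102 to 65.5, 63.7 and 66.3 CPM. No injured group overlapped its uninjured group. The log2 fold change was −0.63 (95% interval −0.83 to −0.43, adjusted p = 1.1e-06), −0.54 (−0.73 to −0.34, adjusted p = 8.4e-06) and −0.70 (−0.89 to −0.50, adjusted p = 1.9e-08), called in background and dnmnatOE. With library totals it was −0.69, −0.92 and −1.45, called in wild type as well. The background value sits at the fold limit, and without replicate 1 or 3 of the uninjured or replicate 3 of the injured background libraries it was no longer called (range without each library −0.69 to −0.58). The difference between the changes in dnmnatOE and wild type did not pass the test (−0.16, 95% interval −0.44 to 0.12, adjusted p = 0.43). Within libraries, the ratio of Sod1 to Sod2 per kilobase averaged 5.89 in uninjured and 4.99 in injured background inputs. These groups did not overlap (exact permutation p = 0.1, the smallest possible). Wild type averaged 5.88 and 5.48 and dnmnatOE 4.29 and 4.97, with overlap (exact permutation p = 0.5 and 0.2). Uninjured dnmnatOE lay below uninjured wild type without overlap (exact permutation p = 0.1).

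Sod3 (chromosome 2R, 11380347 to 11384114), the extracellular enzyme, gave a different pattern from the other dismutases. It held 29.8, 32.1 and 33.5 CPM in uninjured and 31.2, 26.98 and 33.2 CPM in injured background inputs, and these groups overlapped. In wild type the values were 28.3, 27.9 and 29.5 CPM and 25.3, 42.1 and 24.7 CPM, where replicate 2 of the injured group stands apart. In dnmnatOE they were 42.6, 31.7 and 39.9 CPM and 25.7, 22.2 and 24.3 CPM, with no overlap. Sod3 fell in dnmnatOE (−0.66, 95% interval −0.99 to −0.33, adjusted p = 0.00054), and without replicate 1 of uninjured dnmnatOE the value was −0.57, inside the fold limit. In the other genotypes the intervals, −0.40 to 0.27 and −0.23 to 0.43, included 0.

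Catalase (chromosome 3L, 18822604 to 18828188) took different courses in the 3 genotypes. In background it held 107, 98.0 and 102 CPM before and 91.4, 93.4 and 84.3 CPM after injury, all injured libraries being lower, with an adjusted p of 0.14. Wild type had 117, 116 and 104 CPM and 158, 132 and 115 CPM, and these groups overlapped. In dnmnatOE the injured libraries, at 169, 186 and 179 CPM, were all above the uninjured ones at 105, 113 and 117 CPM. The log2 fold change was −0.19 (95% interval −0.38 to 0.00044) in background, 0.27 (0.082 to 0.45, adjusted p = 0.015) in wild type and 0.67 (0.49 to 0.85, adjusted p = 9.1e-09) in dnmnatOE, past the fold limit in the last, and with library totals the wild type and dnmnatOE values turned to −0.12 and −0.080. The wild type value rested on single libraries: without replicate 1 of the injured group it was 0.13 with an adjusted p of 0.28, and without replicate 3 of the uninjured group the test was not passed either. A ratio within a library is free of that scaling. Per kilobase, catalase against Sod1 stood at 0.0838, 0.0749 and 0.0827 in uninjured and 0.123, 0.129 and 0.132 in injured background, at 0.110, 0.108 and 0.110 and 0.246, 0.197 and 0.171 in wild type, and at 0.127, 0.130 and 0.121 and 0.282, 0.286 and 0.271 in dnmnatOE. The injured groups were higher without overlap in all 3 genotypes (exact permutation p = 0.1 each, two-sided, the smallest possible). The ratio describes unequal change of the 2 genes in these libraries. It uses the same counts as the levels above and is no separate support.

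Gclm (chromosome 3R, 22685006 to 22686510), the modifier subunit of glutamate-cysteine ligase, had, on the TMM scale, the largest difference between dnmnatOE and wild type in its change with injury among the 10 genes. With library totals the differences of Sod3 and Keap1 were larger in size. Levels of Gclm in background were 114, 108 and 94.4 CPM in uninjured and 161, 157 and 129 CPM in injured inputs, without overlap. Wild type held 143, 132 and 150.0 CPM and 164, 123 and 151 CPM, and these overlapped. In dnmnatOE the uninjured libraries, at 89.5, 78.9 and 91.2 CPM, were the lowest group and the injured ones, at 206, 212 and 216 CPM, the highest. Gclm rose in dnmnatOE by 1.29 ± 0.095 (SE) on the log2 scale, 2.44-fold (adjusted p = 2.8e-17), and with library totals by 0.54, under the fold limit. The background difference of 0.50 ± 0.095 passed the test without the fold limit (adjusted p = 3.2e-05), and the wild type interval was −0.14 to 0.23, where library totals gave −0.34 (adjusted p = 0.0017). Uninjured dnmnatOE was −0.71 against uninjured wild type (95% interval −0.90 to −0.52, adjusted p = 2.5e-08), the 1 member called of 10 in that comparison, where 7.54% of genes were called. By the adjusted p alone 2 of the 10 passed there, where 16.2% of all genes did. A low uninjured level and a high injured level both enter the change in dnmnatOE.

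The catalytic subunit Gclc (chromosome X, 8102181 to 8116147) varied less. It ranged from 76.9 to 115 CPM over the 18 inputs. The injured libraries lay above the uninjured ones in each genotype, with log2 fold changes of 0.28 (95% interval 0.089 to 0.46, adjusted p = 0.02), 0.17 (−0.018 to 0.35) and 0.13 (−0.054 to 0.31), none past the fold limit. The background test was not passed in 3 of 6 fits without 1 library (adjusted p up to 0.13, without replicate 2 of the uninjured group), and library totals turned the wild type and dnmnatOE values to −0.22 and −0.62, the last called lower. The ratio of Gclm to Gclc per kilobase, which does not depend on scaling, was 2.83, 2.73 and 3.06 in uninjured and 6.42, 6.27 and 6.55 in injured dnmnatOE inputs. In wild type it was 5.08, 4.70 and 5.71 and 5.56, 4.05 and 4.60. Only the dnmnatOE groups were apart (exact permutation p = 0.1, the smallest possible, against 0.4 in wild type and 0.3 in background). The dnmnatOE ratio lay below all wild type libraries before injury and above all of them at 7 dpa.

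**Figure D2:**
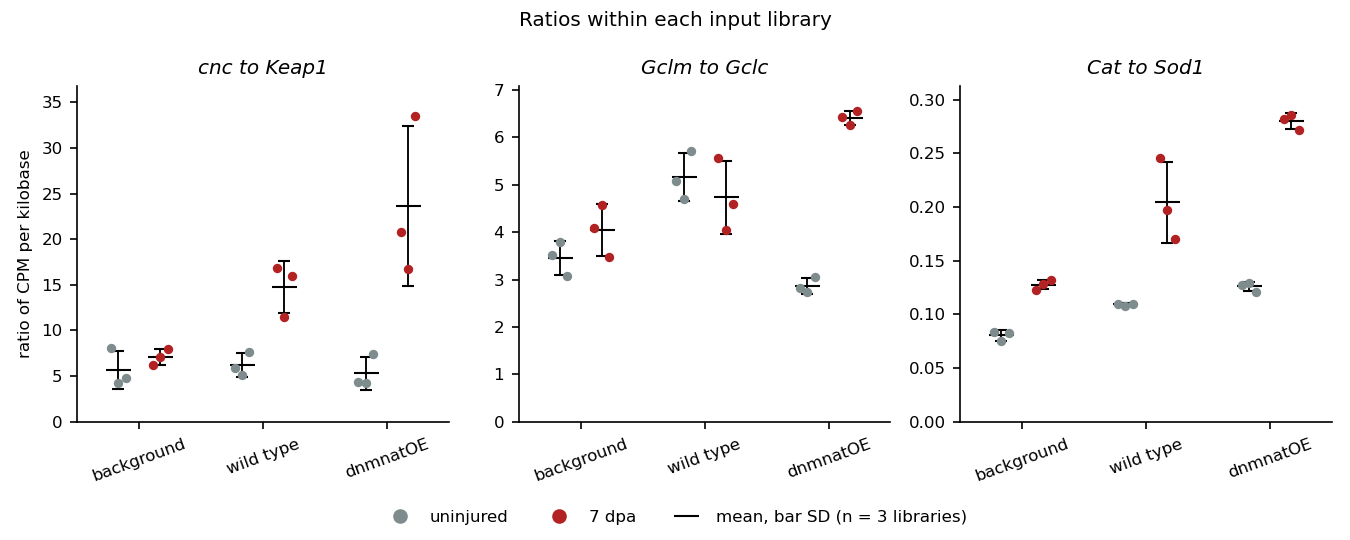
Ratios of the level per kilobase of cnc to Keap1, Gclm to Gclc and Cat to Sod1 within each input library, on linear axes from 0, by genotype, uninjured (grey) and 7 dpa (red). Bars give mean and SD of 3 libraries; the Gclm to Gclc ratio of dnmnatOE moves from 2.73 to 3.06 up to 6.27 to 6.55.

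Of the thioredoxin pair, Trx-2 (chromosome 2L, 9613166 to 9616404) ranged from 168 to 236 CPM over the inputs and Trxr1 (chromosome X, 8242528 to 8248033) from 152 to 214 CPM, the narrowest ranges of the 10 genes in relative terms. Trx-2 had 236, 227 and 229.5 CPM in uninjured and 202, 204 and 194 CPM in injured background inputs. This difference of −0.21 (95% interval −0.36 to −0.053, adjusted p = 0.037) passed the test inside the fold limit, but in 6 of 6 fits without 1 library it did not (adjusted p up to 0.12), and the intervals in wild type (−0.28 to 0.025) and dnmnatOE (−0.19 to 0.12) included 0. For Trxr1 the intervals of all 3 injury comparisons included 0 and lay between −0.25 and 0.31. With library totals Trx-2 was −0.79 and Trxr1 −0.61 in dnmnatOE, both called lower. Trxr1 shares 435 exon bases, 13.8% of its exons, with sni on the opposite strand, and the strand setting of the count is not given.

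**Figure D3:**
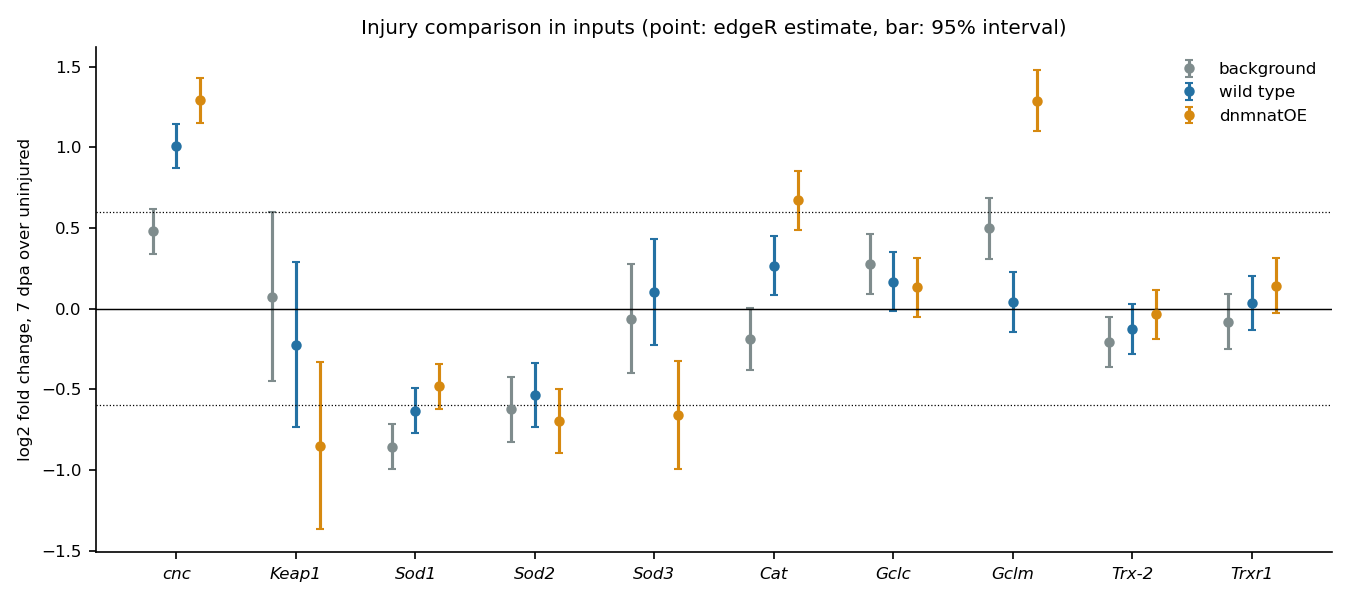
Log2 fold change of 7 dpa over uninjured inputs for the 10 genes in background, wild type and dnmnatOE, with 95% intervals from edgeR; dotted lines mark the fold limit of 0.6 in either direction. On this TMM scale cnc reaches 1.29 and Gclm 1.29 in dnmnatOE, Sod1 and Sod2 lie below 0 in all genotypes, and Cat lies above 0 in wild type and dnmnatOE, where library totals give values below 0.

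Whether the change with injury differs in dnmnatOE was tested as the difference between the injury changes of dnmnatOE and wild type. Of the 10 genes, 1 was called higher and 1 lower, where 22.1% of all genes were called (13% higher and 9.15% lower), and 4 passed the adjusted p alone, where 29.1% of all genes did. Gclm differed by 1.25 (95% interval 0.98 to 1.51, adjusted p = 3.9e-11), and with library totals by 0.88. Sod3 differed by −0.76 (−1.23 to −0.29, adjusted p = 0.0095), which rested on replicate 2 of injured wild type: without it the value was −0.46 with an adjusted p of 0.13. With library totals Sod3 was −1.13, and Keap1 was called lower as well (−0.99, adjusted p = 0.025), which made 1 higher and 2 lower where the median of all genes became −0.34. Cat (0.40, adjusted p = 0.013) and cnc (0.28, adjusted p = 0.021) passed the test inside the fold limit, and with library totals they were 0.037 and −0.085. Cat did not pass without replicate 3 of injured wild type (0.30, adjusted p = 0.078), nor cnc without replicate 1 or 3 of uninjured wild type or replicate 1 of injured dnmnatOE (adjusted p up to 0.08). At 7 dpa itself, 0 of the 10 genes were called between dnmnatOE and wild type inputs by edgeR, DESeq2 or limma voom, with 4 at an unadjusted p under 0.05, where 13.3% of all genes were called by edgeR. The adjusted p alone was passed by 3 of the 10 and 29.1% of all genes. The largest differences there were Gclm at 0.53 (adjusted p = 8.1e-06), Cat at 0.39 (adjusted p = 0.00056) and cnc at 0.36 (adjusted p = 4.1e-05), each without overlap of the groups. With library totals they were 0.20, 0.059 and 0.020 (adjusted p = 0.09, 0.66 and 0.86) where the median of all genes became −0.33, and Sod3 was then called lower (−0.68). Leaving out replicate 1 of injured wild type brought Gclm to 0.62 and past the fold limit.

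Wild type and background, which differ by the tagged ribosomal protein, were compared in the same way. Uninjured, 0 of the 10 genes were called by edgeR, DESeq2 or limma voom, with 5 at an unadjusted p under 0.05, where 6.52% of all genes were called by edgeR. The adjusted p alone was passed by 4 of the 10 and 13.4% of all genes. Gclm was at 0.43 (adjusted p = 0.00052), and Sod2 and Trx-2 at −0.30 and −0.23 (adjusted p = 0.026 and 0.036), all inside the fold limit, the tests of Sod2 and Trx-2 not being passed in 4 of 6 and 6 of 6 fits without 1 library. At 7 dpa cnc was called (0.68, 95% interval 0.54 to 0.82, adjusted p = 8.3e-12), 1 of 10 against 14.6% of all genes (3 of 10 and 26.7% by the adjusted p alone), and with library totals it was 0.33, inside the limit. Cat was at 0.59 (0.40 to 0.78, adjusted p = 1.1e-06), just under the limit, and passed it in 4 of the 6 fits that left out 1 library, but with library totals it was 0.24 (adjusted p = 0.033). In place of cnc, library totals called Gclc (−0.61) and Keap1 (−0.69) lower, where the median of all genes became −0.33.

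Of 31 further antioxidant genes, 27 were tested in inputs. After injury, 1 was called higher and 6 lower in background, 2 and 2 in wild type, and 5 and 5 in dnmnatOE, where 15.2%, 28.5% and 50.7% of all genes were called, and their median log2 fold change was −0.30, −0.14 and −0.098. Called in each genotype were ref(2)P, the fly counterpart of the autophagy receptor p62, which was higher, and dj-1beta and the methionine sulfoxide reductase MsrA, which were lower. For ref(2)P the uninjured inputs of background, wild type and dnmnatOE held 134, 144 and 129, 131, 123 and 114, and 118, 125 and 115 CPM. The injured ones held 234, 222 and 229, 243, 231 and 239.8, and 314, 299 and 306 CPM, all above the former. Its log2 fold change was 0.75, 0.95 and 1.36 (adjusted p = 3.2e-12, 3.2e-16 and 1.6e-22). Among the calls of these 3 genes, library totals ended that of ref(2)P in wild type, at 0.57. MsrA fell by 0.92, 1.22 and 0.90, and dj-1beta fell by 0.72, 0.80 and 0.77 on the log2 scale.

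The list holds 4 enzymes that supply NADPH, the reductant of the thioredoxin system. Pgd, of the pentose phosphate pathway, held 50.8, 54.9 and 58.4 CPM in uninjured and 159, 166 and 179.7 CPM in injured dnmnatOE inputs, and 81.0, 76.4 and 79.0 and 100.4, 111 and 123 CPM in wild type. Zw, the first enzyme of that pathway, went from 28.3, 35.6 and 25.8 to 76.1, 59.8 and 60.9 CPM in dnmnatOE. With Idh, the isocitrate dehydrogenase, they were 3 of the 4 further genes of 27 called in the difference between the injury changes of dnmnatOE and wild type, where 22.1% of all genes were called: Pgd 1.12, Zw 0.80 and Idh 0.64 (adjusted p = 1.1e-07, 0.0014 and 1.2e-06). With library totals they were 0.75, 0.44 and 0.27, the last pair inside the fold limit, and Idh also lost its call without replicate 2 of injured dnmnatOE. The other gene was the peroxiredoxin Prx6a (1.56), at under 13 CPM in every input, whose call was lost in 5 of 12 fits without 1 library. Men, the malic enzyme, was called in background, where it fell by 0.82 (adjusted p = 5.7e-12). The peroxiredoxin Prx4 rose in wild type by 1.46 and in dnmnatOE by 1.73, from 6.48, 7.93 and 4.28 to 21.4, 17.9 and 22.9 CPM in the latter. In dnmnatOE the methionine sulfoxide reductase SelR (−1.01), the transcription factor foxo (−0.92) and maf-S (−0.84), the partner of CncC, were called lower. SelR (−0.68) and maf-S (−0.62) were called lower in background as well. There the call of maf-S was lost in 3 of 6 fits without 1 library and with limma voom. With injury in dnmnatOE, library totals gave 0.39 for Zw and 0.028 for Idh, both inside the limit. The fat body and neuronal marker sums given above moved in the same libraries, and their part was not tested.

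Between uninjured dnmnatOE and wild type inputs, Prx6b was called higher (1.83) and Prx6a (−1.76) and MsrA (−0.62) lower, 3 of 27 where 7.54% of all genes were called. Prx6b is nearly identical to Prx6c, so its reads are uncertain, and its call was lost in 3 of 6 fits without 1 library. At 7 dpa Zw was the 1 gene of the 27 called, where 13.3% of all genes were, at 0.70, a call lost without replicate 1 of either group (range without each library 0.58 to 0.77) and with library totals (0.37). The call of MsrA was lost without replicate 1 of wild type or replicate 2 of dnmnatOE. Between wild type and background inputs at 7 dpa, Prx4 (1.45) and Pgd (0.94) of the 27 were called higher, where 14.6% of all genes were called. With library totals Pgd was 0.59, inside the fold limit.

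Pulldowns were tested in a fit of their own over 7213 genes. The members had few counts there: Sod2 0 to 51, Sod3 3 to 28, Keap1 2 to 49 and Trx-2 8 to 77 a library, against 112 to 770 for cnc. The first comparison is that of dnmnatOE with wild type at 7 dpa. None of the 10 genes was called there by edgeR, DESeq2 or limma voom, 0 had an unadjusted p under 0.05, and 2.61% of all genes were called by edgeR (3.02% by the adjusted p alone). Every 95% interval included 0: 0.015 (−0.35 to 0.38) for cnc, 0.14 (−0.35 to 0.62) for Gclc, 0.26 (−0.38 to 0.90) for Trxr1 and 0.60 (−0.014 to 1.21) for Cat. A change of the size of the fold limit lies outside the interval of cnc and inside that of Cat. Sod1 gave −0.50 (−1.32 to 0.32), Gclm −0.46 (−1.41 to 0.49), Trx-2 −0.066 (−1.29 to 1.16), Keap1 0.14 (−1.35 to 1.64), Sod3 0.033 (−1.75 to 1.81) and Sod2 1.43 (−0.55 to 3.40). Even differences of several fold could not be told from 0 there for Sod2 and Sod3.

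By edgeR, cnc was the 1 member called in comparisons among pulldowns. Its level was 297, 310.2 and 365 CPM in uninjured background pulldowns, 170.1, 186 and 247 CPM in wild type and 344, 358 and 317 CPM in dnmnatOE. At 7 dpa it was 296, 284 and 243, 272, 416 and 321, and 371, 295 and 354 CPM in the same order. The uninjured wild type group had the lowest mean but overlapped that of injured background, and beads of background, which held no tagged ribosome, overlapped with those of dnmnatOE (difference 0.070, 95% interval −0.29 to 0.43). Wild type rose with injury by 0.75 (95% interval 0.37 to 1.13, adjusted p = 0.0069), 1 of 10 genes where 6.22% of all genes were called (7.02% by the adjusted p alone), and without replicate 2 of the injured group it was 0.57 and not called, nor was it with limma voom. Uninjured dnmnatOE was 0.76 above wild type (0.39 to 1.14, adjusted p = 0.0044), again 1 of 10 where 6.64% were called (7.06% by the adjusted p alone). Uninjured wild type was −0.69 against background (−1.07 to −0.31, adjusted p = 0.025), 1 of 10 where 3.01% were called (3.29% by the adjusted p alone), a call lost with limma voom and without replicate 3 of background or replicate 1 or 2 of wild type. All 3 share the uninjured wild type libraries. The difference between the injury changes of dnmnatOE and wild type was −0.75 (−1.27 to −0.23, adjusted p = 0.12) in pulldowns. Inputs gave 0.28, and −0.085 with library totals.

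**Figure D4:**
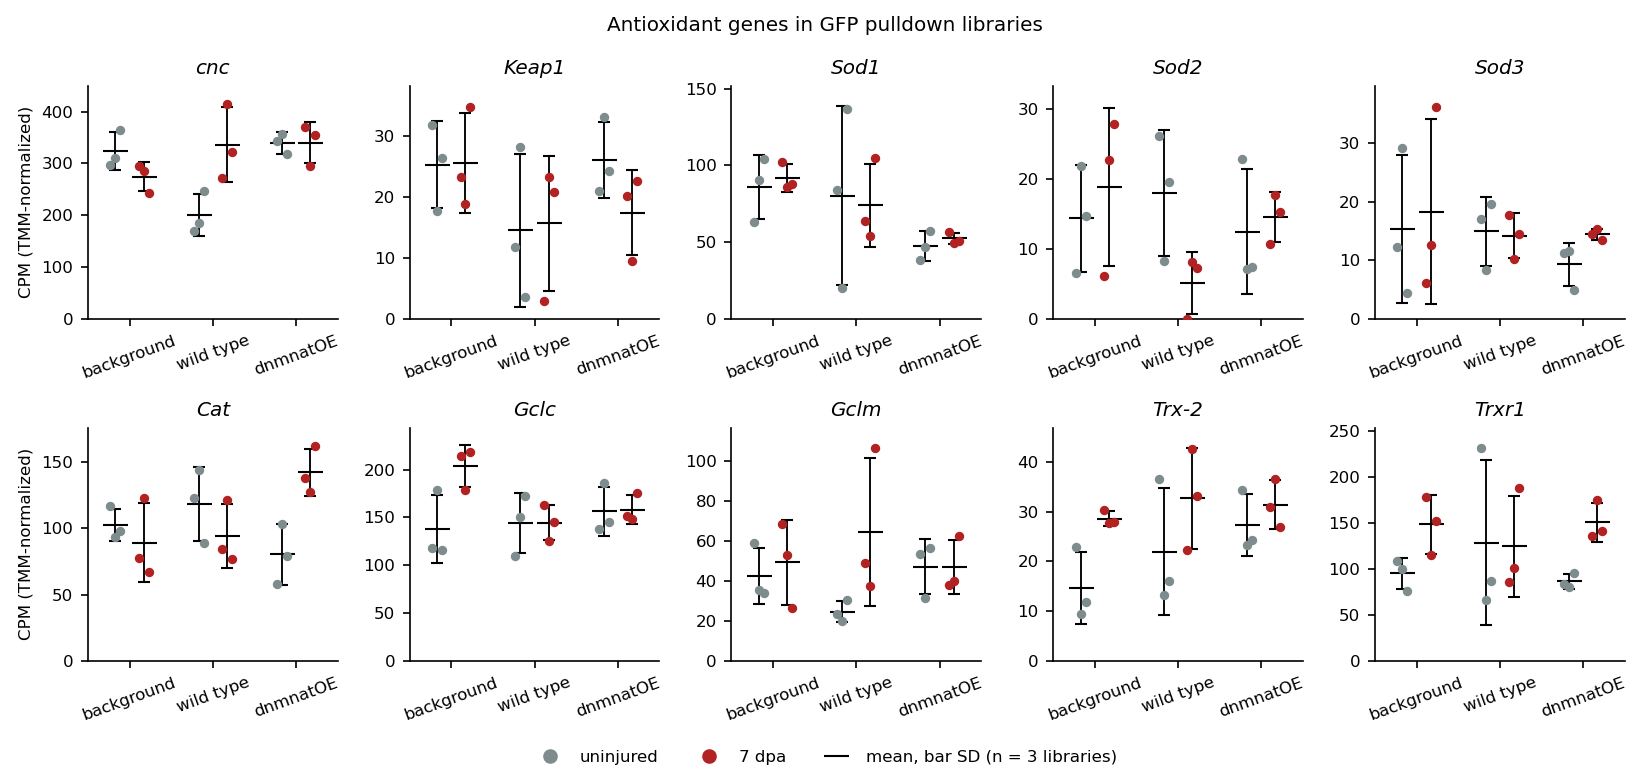
Levels of the 10 genes in pulldowns, in CPM on linear axes from 0, for background (no tagged ribosome), wild type and dnmnatOE, uninjured (grey) and 7 dpa (red). Points are libraries and bars mean and SD of 3; cnc is lowest on average in uninjured wild type, and the other genes spread widely, Sod2 from 0 to 27.8 CPM.

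After injury 0 of the 10 genes were called in background pulldowns and 0 in dnmnatOE pulldowns by edgeR, where 2.58% and 11.9% of all genes were called (3.09% and 12.5% by the adjusted p alone). At an unadjusted p under 0.05 there were 1 and 2, DESeq2 called 0 and 1 (Cat), and limma voom 0 and 2 (Cat and Trxr1). Cat held 58.1, 104 and 79.2 CPM in uninjured and 138, 127 and 162 CPM in injured dnmnatOE pulldowns, without overlap, with a log2 fold change of 0.84 (95% interval 0.23 to 1.44, adjusted p = 0.057). Trxr1 held 83.1, 80.5 and 95.1 and 135, 175 and 142 CPM in the same groups, with 0.80 (0.16 to 1.44, adjusted p = 0.1). Gclm in wild type pulldowns went from 23.5, 19.9 and 30.2 to 48.8, 37.5 and 107 CPM, with 1.39 (0.38 to 2.41, adjusted p = 0.083). Likewise 0 of the 10 genes were called by edgeR, DESeq2 or limma voom in the difference of injury changes (3 at an unadjusted p under 0.05, 3.05% of all genes called and 3.22% by the adjusted p alone) and in wild type against background at 7 dpa (1, 3.05% and 3.56%). The same count of 0 held for dnmnatOE against background in uninjured heads (1, 5.55% and 6.09%) and at 7 dpa (1, 4.69% and 5.32%).

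Of the further antioxidant genes, 19 were tested in pulldowns. In injured background 1 was called higher (ref(2)P, 1.54), where 2.58% of all genes were called. In uninjured dnmnatOE against background 1 was called higher (maf-S, 2.47), where 5.55% of all genes were called. The maf-S call was lost in 3 of 6 fits without 1 library. In injured wild type 1 was called higher and 1 lower, where 6.22% of all genes were called. Prx2 was the higher one (1.66), a call lost without replicate 3 of that group. Prx3 was called lower there, with 30.1, 0 and 30.2 CPM in uninjured and 0, 1.01 and 0 CPM in injured libraries, and this call was lost in 5 of 6 fits without 1 library.

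Which RNAs the bead fraction holds relative to whole heads was asked by setting pulldowns against inputs, averaged over the 6 groups, in a fit of all 36 libraries and 9860 genes. Poly-A selection and kit differ between the fractions, so their share cannot be told apart from binding to the beads. Of the 10 genes, 2 were called higher and 6 lower in pulldowns, where 57.6% of all genes were called (17.5% higher and 40.1% lower). The adjusted p alone was passed by 9 of the 10 and 67.7% of all genes, whose median was −0.52. Gclc was higher (0.83 ± 0.070 SE, adjusted p = 7.9e-15), as was Keap1 (0.74 ± 0.21, adjusted p = 0.002), the latter not in uninjured libraries alone. Lower were Trx-2 (−2.89 ± 0.097), Sod2 (−2.59 ± 0.17), Sod1 (−2.09 ± 0.098), Gclm (−1.53 ± 0.11), Sod3 (−1.06 ± 0.19) and Trxr1 (−0.63 ± 0.095), with adjusted p from 4.5e-31 to 3.8e-06. Trxr1 lies near the median of all genes, and its call was lost in 11 of 36 fits without 1 library. The values of cnc (0.12) and Cat (−0.14) were within the fold limit. The genes with the longest exons (cnc, 9178 bases, Gclc, 4402, and Keap1, 3447) were the highest in this comparison and those of 735 to 1505 bases (Sod1, Sod2, Trx-2 and Gclm) the lowest, a description over 10 genes. Of 26 further antioxidant genes tested, 2 were called higher (Cul3, 0.64, and foxo, 0.71) and 18 lower. The call of Cul3 was lost without replicate 1 of injured dnmnatOE pulldowns, with RLE size factors, library totals or DESeq2, and in uninjured libraries alone.

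**Figure D5:**
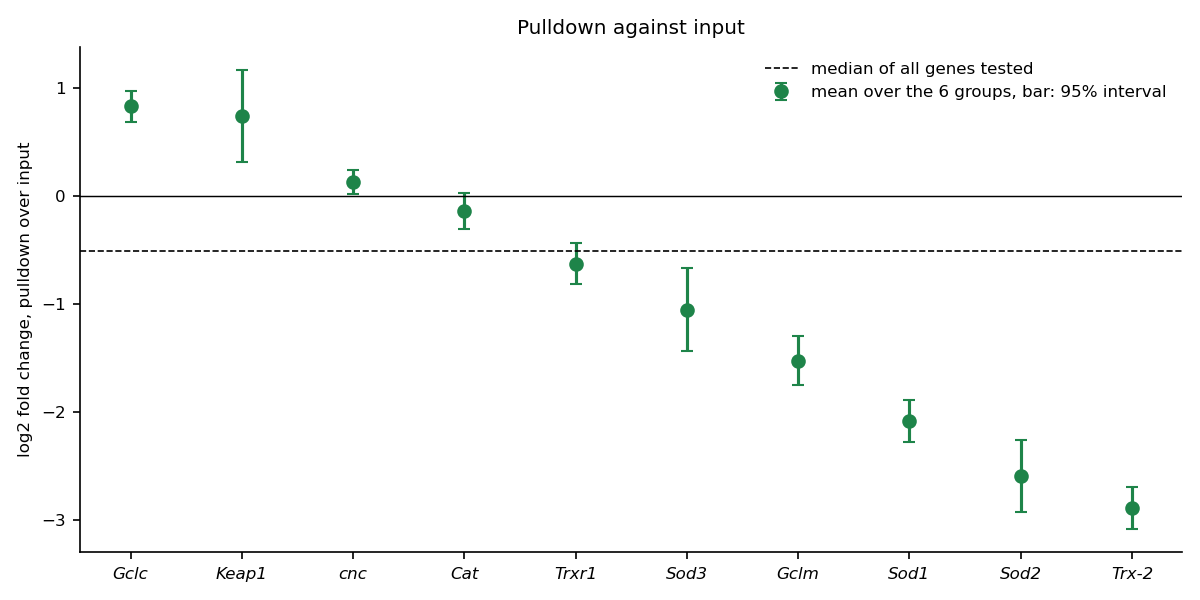
Log2 fold change of pulldown over input for the 10 genes, averaged over the 6 groups, with 95% intervals from edgeR; the dashed line is the median of all genes at −0.52. Gclc and Keap1 lie highest, and Trx-2 lowest at −2.89.

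The tagged genotypes were then set against background in the same contrast, which asks whether the bead fraction differs where a tagged ribosome is present. Of the 10 genes 1 was called, where 4.99% of all genes were called, and 2 passed the adjusted p alone, where 6.72% did. Trx-2 was 0.68 higher (95% interval 0.24 to 1.12, adjusted p = 0.049), but it lost the call in 9 of 36 fits without 1 library, with RLE size factors, without the filter, with limma voom and in either injury state alone. For cnc the difference was −0.45 (−0.68 to −0.21, adjusted p = 0.011), inside the fold limit, and its test was not passed in 9 of 36 fits without 1 library nor with library totals (−0.18, adjusted p = 0.38). The other 8 intervals included 0. Of the further genes, maf-S (1.80, adjusted p = 0.0003) and the glutathione-type peroxidase Gtpx (0.75, adjusted p = 0.026) were called, the latter losing its call without replicate 1 of injured background pulldowns, with limma voom and in either injury state alone, and the former in libraries of 7 dpa alone.

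The likeness of patterns across the 18 inputs was described by Pearson's r of log2 CPM with 6537 genes of at least 10 CPM on average. These libraries share depth, injury state and the shifts in makeup given above. The gene most like cnc was Cln7 (r = 0.990). The closest to Sod1 was Miox (0.959), to Sod2 Gpdh1 (0.955), to Cat CG3842 (0.951) and to Gclm CG8112 (0.938). The remaining genes had lower best values: Trx-2 with mRpL42 (0.864), Keap1 with CG7841 (0.858), Sod3 with nej (0.853), Gclc with shrb (0.809) and Trxr1 with lark (0.790). Among the members, Sod1 and Sod2 were alike (r = 0.849). Cat and Gclm went with cnc (0.786 and 0.741), while Gclc and Trxr1 had lower values with it (0.318 and 0.212). Sod1 and Sod2 went against cnc (−0.850 and −0.837), and Keap1, Trx-2 and Sod3 less so (−0.567, −0.534 and −0.489). The subunits Gclc and Gclm had an r of 0.326.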

How the data were processed

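The authors deposited raw read counts per gene for 36 libraries, without normalization, made with Trimmomatic, Hisat2 (FlyBase release 6.43), Samtools and Htseq-Count; versions, counting mode and strand setting are not given in the sources used here. Samples were grouped by their labels. Summary rows naming no gene were left out of library sizes and tests; the share of ambiguous reads is given in the report. Counts were filtered with filterByExpr, scaled by TMM and tested with edgeR 4.0.16 (robust quasi-likelihood, 1 coefficient per group, R 4.3.3) in separate fits of 18 inputs, 18 pulldowns and all 36 libraries, with Benjamini-Hochberg adjustment over all genes tested. Each test was first checked on simulated counts. Calls used the thresholds of the study's methods. Alternatives were RLE size factors, no and stricter filters, limma 3.58.1 voom, DESeq2 1.42.0, the replicate number as a block, each library left out, and, added after seeing the data, library totals alone. Ratios used an exact permutation test over libraries and were not part of the plan. Levels per length used merged exons of the Ensembl annotation on BDGP6, whose coordinates are printed. The named genes are the 10 members, and further antioxidant genes that were called, with the genes nearest in pattern. The plan was to name at most 5 further genes a comparison by size of change. More are named for injury in background and dnmnatOE inputs. Members and lists were chosen with earlier results of these data known. No pair of libraries in a group was close enough to be 1 library deposited as a pair (chi-square per gene at least 4.04). Sequences of the genes were not analysed here.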

Additional observations from a re-analysis of the deposited data

Results flagged for a closer look

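In 4 of the 10 genes the change with injury in inputs differed between dnmnatOE and wild type by edgeR's test of the difference itself (18 inputs, 3 libraries a group), which 29.1% of all genes passed. Gclm differed by 1.25 on the log2 scale (adjusted p = 3.9e-11), with every injured dnmnatOE library above every uninjured one and overlapping groups in wild type. Sod3 differed by −0.76 (adjusted p = 0.0095), lower at 7 dpa in all dnmnatOE libraries and higher in 1 of 3 wild type libraries, replicate 2, without which the value was −0.46; with library totals it was −1.13, and that of Gclm 0.88. Cat differed by 0.40 (adjusted p = 0.013) and cnc by 0.28 (adjusted p = 0.021), and with library totals in place of TMM factors these values were 0.037 and −0.085. Without replicate 3 of injured wild type Cat did not pass (adjusted p = 0.078), and cnc did not in 3 of 12 fits without 1 library. The summed level of fat body markers, most of it from the yolk proteins, was 139287 to 150112 CPM in injured wild type inputs. In injured dnmnatOE inputs it was 245323 to 270242 CPM, and its part was not tested.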

How the results depend on the processing

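Counts of members called stayed within 1.5 times of the reported ones under most alternatives. With library totals alone, an alternative added after seeing the data, 4 members were called with injury in wild type inputs (1 higher, 3 lower), 7 in dnmnatOE inputs (0 higher, 7 lower), 3 in the difference in change (1 higher, 2 lower), 1 between dnmnatOE and wild type inputs at 7 dpa, 2 between wild type and background inputs at 7 dpa and 2 between uninjured dnmnatOE and wild type pulldowns. The same setting turned Cat with injury to −0.12 in wild type and −0.080 in dnmnatOE inputs, the cnc difference in change to −0.085, and Trx-2 between dnmnatOE and wild type pulldowns at 7 dpa to 0.29. In this setting the median of all genes moved with them, to −0.81 with injury in dnmnatOE inputs. By limma voom 0 members were called in injured against uninjured wild type pulldowns, 0 in uninjured wild type against background pulldowns and 2 in injured against uninjured dnmnatOE pulldowns, where DESeq2 called 1. Of the tagged genotypes minus background, 0 were called with RLE size factors, without a filter, by limma voom and in either injury state alone. In libraries of 7 dpa alone, cnc in pulldown against input turned to −0.10. The cause was not tested in these cases. The equally numbered libraries of different groups did not deviate together (r from −0.038 to 0.036 in 45 pairs a fraction), so the replicate number was used as a block only as an alternative, which gave 1 call in injured against uninjured dnmnatOE pulldowns in place of 0 and left every other count of called members as reported.

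Without 1 library in turn, members called ran from 1 to 2 with injury in background inputs, 0 to 1 for dnmnatOE against wild type inputs at 7 dpa, 1 to 2 for the difference in change, 1 to 2 for wild type against background inputs at 7 dpa, 0 to 1 with injury in wild type pulldowns, 1 to 2 for uninjured dnmnatOE against wild type pulldowns, 0 to 1 for the difference in change in pulldowns (without replicate 3 of uninjured wild type), 0 to 1 for uninjured wild type against background pulldowns and 0 to 1 for the tagged genotypes minus background. In dnmnatOE against wild type pulldowns at 7 dpa, the uncalled values crossed 0: Sod3 −0.16 to 0.23, Gclm −0.73 to 0.10, Trx-2 −0.27 to 0.18, Keap1 −0.31 to 0.53 and cnc −0.11 to 0.20. With the longest transcript as length, levels in CPM per kilobase were 85.5 for Trxr1 and 44.4 for cnc in inputs, and 53.6 and 43.5 in pulldowns; with library totals cnc was 31.7 in inputs. By Spearman's rho another gene was most like each member but Trx-2: Sod1 0.944, Sod2 0.957, Sod3 0.889, Cat 0.917, Gclc 0.829, Gclm 0.938, Trxr1 0.752, Keap1 0.798 and cnc 0.981. Pulldowns were less precise. The median SE of the members' log2 differences was 0.44 for dnmnatOE against wild type at 7 dpa, against 0.091 in inputs. Depth, preparation and spread between libraries differ between the fractions, and their parts were not tested.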
